A study of Mus musculus with 1615 samples.

Results

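F2r-high visceral smooth muscle cells are cells of the mouse colon that hold RNA of the smooth muscle myosin gene Myh11 together with RNA of F2r, the gene of the thrombin receptor PAR1. They were chosen cell by cell on CPM (the counts of a gene scaled to 1e6 gene counts of that cell). A cell was kept with at least 1000 CPM of Myh11, under 200 CPM of Notch3, under 200 CPM of Pdgfra, under 100 CPM of Cdh5, under 100 CPM of Epcam, and more F2r than Ano1. Of 1615 cells in all, 395 met the rule, which is 24.5% with an exact Clopper-Pearson 95% interval of 22.4% to 26.6%. Intervals cover counting error only. These 7 genes chose the cells, so their levels are given below as a description and were not tested.

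All 395 cells came from 3 mice of 1 reporter line, ACTA2GFP:CSPG4dsRED, which carries a green fluorescent Acta2 reporter and a red fluorescent Cspg4 reporter. Female 20GG79:1 gave 148 of its 359 cells (41.2%, interval 36.1% to 46.5%), male 20GG79:6 gave 47 of 242 (19.4%, 14.6% to 25.0%) and female 20GG95:3 gave 200 of 505 (39.6%, 35.3% to 44.0%). The other 8 mice, all male, carried a single reporter (PDGFRbGFP, PDGFRaH2bGFP, CSPG4dsRED or ACTA2GFP), and 0 of their 509 cells met the rule. Those mice gave 5 to 199 cells each, so that a count of 0 has an exact upper limit of 1.84% in the mouse with the most cells and of 52.2% in the mouse with the fewest. The series is an inventory of murine smooth muscle in which single cells were sorted into 384-well plates and sequenced with Smart-Seq2, a full-length protocol without molecular identifiers. The labels give the tissue as colon and the age as 8 to 30 weeks for every mouse, while a protocol mentions dissociation of heart and the series design mentions only male mice, aged no more than 21 weeks. No sort gate is described for any line, so the shares of cells describe what was sorted and not the make-up of the colon wall. With 2 females and 1 male, sex and mouse cannot be told apart.

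Visceral smooth muscle contracts when calcium and calmodulin switch on myosin light chain kinase, and it relaxes through nitric oxide and cyclic nucleotides. Receptors that couple to Gq and G12/13, the thrombin receptor among them, raise calcium and RhoA activity and so raise tone. In the gut wall, Hedgehog ligands from the epithelium act on the mesenchyme beneath it, where Foxf and Foxl1 factors and BMP ligands lie downstream, and the muscle of the mucosa lies closest to that source. Ano1 encodes a calcium-activated chloride channel that is best known from interstitial cells of Cajal, the pacemaker cells of the gut, and that some smooth muscle also carries.

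Myh11 alone left 721 cells, Notch3 left 555, Pdgfra 543, Cdh5 542 and Epcam 535. The last step, F2r above Ano1, left the 395. Of the other 140, 125 held more Ano1 than F2r and are called Ano1-high cells here (9, 14 and 102 in 20GG79:1, 20GG79:6 and 20GG95:3), and 15 cells, all of 20GG95:3, held equal amounts of both. Cells just inside the last step held 5.91 CPM of F2r against 2.96 of Ano1, or 5.27 against 0, and the cells just outside held 28.9 or 22.03 CPM of each. The lowest Myh11 level inside was 1073 CPM, and the highest among cells that failed only that step was 991 CPM. Most members lay far from equality: the log2 ratio of F2r to Ano1, each as CPM + 1, was 4 to 8 in 147 of them and 8 to 14 in 204.

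**Figure D1:**
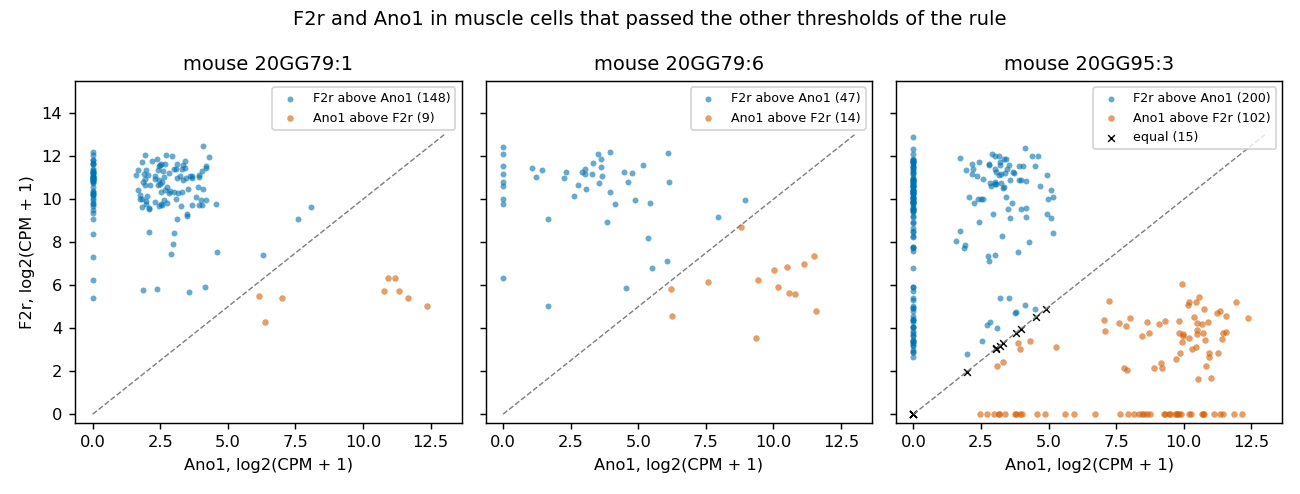
F2r (vertical) against Ano1 (horizontal) in each muscle cell that passed the other 5 thresholds, as log2(CPM + 1), by mouse. Blue points hold more F2r, orange points more Ano1 and crosses equal amounts, and the dashed line marks equality; most points lie along one axis or the other.

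F2r itself (chr13:95601803-95618487, minus strand, GRCm38) had a median of 1697, 1803 and 1075 CPM per member in 20GG79:1, 20GG79:6 and 20GG95:3, the order of mice used for all values below. Summed over the members of each mouse it stood at 1817, 1850.5 and 1486 CPM, against 49.9, 87.1 and 8.63 CPM in Ano1-high cells and 208, 30.8 and 46.5 CPM in muscle cells with at least 200 CPM of Notch3, a group of 26, 20 and 118 cells. Stromal cells with at least 200 CPM of Pdgfra and under 1000 of Myh11, 90 in 20GG79:1 and 56 in 20GG79:6, held 689.8 and 623 CPM, and 20GG95:3 had 0 such cells. F2r was therefore highest in the members, lower in the stroma and lowest in the other muscle, with no overlap between mice of different groups for the first pair. Ano1 stood at 7.45, 34.9 and 4.03 CPM in members and 1734, 1413 and 1199 CPM in Ano1-high cells. The other genes of the rule were Myh11 at 4616, 5054 and 6015 CPM, Notch3 at 4.45, 12 and 6.77 CPM and Pdgfra at 11.1, 22 and 0.567 CPM. The low Pdgfra level differed between mice. Its median per member was 9.38 and 21.5 CPM in the mice that also gave Pdgfra-positive stroma and 0 CPM in 20GG95:3. No plate held cells of more than 1 mouse, so plate and mouse cannot be told apart here. The part of reads from neighbouring wells in this level was not tested.

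The label was checked against marker lists. Of 10 markers of visceral smooth muscle, 9 stood at 100 CPM or more in the members of every mouse, the exception being Synm at 70, 117 and 125 CPM, and their sum ran from 17174 to 24896 CPM. Ano1-high cells and Notch3-positive muscle also had 9 of 10 at that level, with sums of 14921 to 26450 and 13388 to 21040 CPM, while stroma had 4, with 2354 to 2698 CPM, so that this list parts muscle from stroma and not one muscle group from another. Actg2, which the rule did not use, stood at 2348, 2163 and 3432 CPM in members and 443, 357 and 758 CPM in Notch3-positive muscle. Of 10 vascular muscle markers 3 stood at 100 CPM or more in the members of every mouse and 4 were under 10, with a sum of 1087 to 1947 CPM led by Casq2 at 496 to 948 CPM, beside 4079 to 5934 CPM in Notch3-positive muscle. Of the 6 markers given for these cells, Myh11 and F2r belong to the rule, and the other 4 (Actg2, Hhip, Cpxm2 and Adamdec1) stood above 100 CPM in every mouse. Of the immune markers 8 of 10 and of the lymphatic markers 7 of 8 were under 10 CPM in every mouse, with sums of 12.3 to 56.2 and 43.0 to 96.1 CPM. The blood endothelium sum of 462 to 533 CPM was mostly Esam, at 383 to 511 CPM, an adhesion gene also read in smooth muscle. Markers of interstitial cells of Cajal summed to 438 to 621 CPM, mostly Gucy1a1 at 375 to 599 CPM. Kit, the defining gene of that cell type, had 0, 5 and 87 counts over all members of each mouse. Epithelial markers summed to 23.3 to 481 CPM, glial markers to 54.3 to 289 CPM, enteric neuron markers to 35.9 to 119 CPM with Ret at up to 94.1 CPM, and mesothelial markers to 3.04 to 153 CPM. Fibroblast markers summed to 5039 to 6502 CPM, led by Col1a1, beside 14972 to 19938 CPM in Pdgfra-positive stroma. Ano1-high cells had 3206 to 6845 CPM, which overlaps with the members, and Notch3-positive muscle 3083 to 3831 CPM. At least 2 markers of the same other class stood at 100 CPM or more in 26 of the 395 members. The classes counted were blood and lymphatic endothelium, epithelium, immune cells, glia and enteric neurons. Fibroblast, pericyte and vascular muscle markers were not counted. The part of cells counted this way in the results was not tested beyond leaving them out. The lists show muscle genes and, at a high level beside them, matrix genes. The visceral label rests on the Actg2 level. The gaps to Notch3-positive muscle lie across the Notch3 threshold, so they describe the groups and are no separate support for it. Ano1-high cells, on the same side of that threshold as the members, had a vascular sum of 1276 to 1655 CPM.

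Between genes, levels can be compared only per length of RNA. Only the 883 genes above a set mean level in the members were ranked, without ribosomal, mitochondrial and predicted genes. Per kilobase of exon, Myl9 ranked highest among them at 2847 CPM per kb, followed by Acta2 at 2685 and Actg2 at 1701 CPM per kb. Adamdec1, which encodes a disintegrin-like metalloprotease of the gut lamina propria, ranked 9th at 830.4 CPM per kb, Myh11 12th at 688, Agt, the gene of angiotensinogen, 15th at 665, and F2r 37th at 515 CPM per kb. Cpxm2 and Hhip ranked 97th and 117th at 296 and 277 CPM per kb. F2r RNA thus stood within a factor of 2 of that of the myosin heavy chain per length, as these libraries count it.

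Promoter sequences are shown for 4 genes that set these cells apart: F2r, which defines them, and Actc1, Cpxm2 and Bdkrb2, each higher in the members in every comparison below. Each runs from 250 bases before to 50 bases after the RefSeq start site (GRCm38.p6), in the direction of the gene. Capitals mark a CArG box, the binding motif of the muscle regulator SRF, searched on both strands (the pattern is its own reverse complement).
Actc1, chr2:114052826-114053125, minus strand: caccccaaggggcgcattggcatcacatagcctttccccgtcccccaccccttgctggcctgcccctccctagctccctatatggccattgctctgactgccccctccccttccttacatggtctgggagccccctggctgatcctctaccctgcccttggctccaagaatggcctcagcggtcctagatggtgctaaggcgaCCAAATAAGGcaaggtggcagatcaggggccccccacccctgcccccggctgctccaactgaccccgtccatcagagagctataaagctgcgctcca
F2r, chr13:95618417-95618716, minus strand: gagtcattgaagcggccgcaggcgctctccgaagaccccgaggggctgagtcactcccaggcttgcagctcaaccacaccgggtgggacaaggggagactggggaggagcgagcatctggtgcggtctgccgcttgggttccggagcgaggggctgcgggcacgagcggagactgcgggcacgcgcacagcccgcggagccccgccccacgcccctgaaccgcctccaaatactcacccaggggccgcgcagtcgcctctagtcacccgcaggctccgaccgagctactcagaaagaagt
Cpxm2, chr7:132154692-132154991, minus strand: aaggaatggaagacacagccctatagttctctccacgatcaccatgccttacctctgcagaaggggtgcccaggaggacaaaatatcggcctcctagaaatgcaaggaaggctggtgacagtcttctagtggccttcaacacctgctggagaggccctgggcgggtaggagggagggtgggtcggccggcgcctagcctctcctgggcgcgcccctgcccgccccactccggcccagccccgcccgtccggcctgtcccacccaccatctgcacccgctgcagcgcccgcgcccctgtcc
Bdkrb2, chr12:105562922-105563221, plus strand: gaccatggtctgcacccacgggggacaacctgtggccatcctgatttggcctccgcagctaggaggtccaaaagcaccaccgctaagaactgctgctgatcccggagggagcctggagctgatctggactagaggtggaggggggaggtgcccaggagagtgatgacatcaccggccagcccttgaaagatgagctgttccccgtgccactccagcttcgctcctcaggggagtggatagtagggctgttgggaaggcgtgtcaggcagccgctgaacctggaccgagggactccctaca
The Actc1 window holds 1 CArG box, CCAAATAAGG, that starts 47 bases before the start site, and the other 3 windows hold none. Across RefSeq, 488 of 27025 genes (1.81%) hold such a box in a window of this length. Of 34 contractile genes with an entry 7 did (20.6%: Actc1, Fhl1, Ldb3, Myl6, Myl9, Srf and Vcl), and of 10 genes higher in F2r-high than in Ano1-high cells 1 did, Actc1. The GLI motif GACCACCCA, searched on both strands for the Hedgehog genes, was in 78 genes (0.289%) and in 0 of the 12 Hedgehog list genes with an entry. A match describes letters in this window only.

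The members were compared with 3 groups, and counts were summed per mouse and group so that the mouse, not the cell, was the replicate. All other cells of the same mice (211, 195 and 305 cells) form the broadest comparison, with 3 mice. Ano1-high cells share every threshold with the members but the last. Pdgfra-positive stroma could be compared in 20GG79:1 and 20GG79:6 only. Groups cut by any of the 7 genes of the rule will also differ in genes that vary with them. All other cells include the muscle that the Notch3 threshold left out. A gene that passed therefore describes how the groups differ and is no separate evidence for a cell type. A gene passed at an edgeR quasi-likelihood p of at most 0.05 after Benjamini-Hochberg adjustment over all genes tested except the 7 of the rule. Fold changes are log2 values with the SE of the fit. Where groups are said not to overlap, this describes the mice at hand. The share of all genes tested that show no overlap was not counted, so it is no evidence beside the test.

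Against all other cells, 40 of 18266 genes were higher in members (0.219%) and 103 were lower (0.564%), 143 in either direction (0.783%). Against Ano1-high cells, 16 of 14307 were higher (0.112%) and 25 lower (0.175%), 41 in all (0.287%). Against Pdgfra-positive stroma, 186 of 16440 were higher (1.13%) and 158 lower (0.961%), 344 in all (2.09%). The fits had 2, 2 and 1 residual degrees of freedom, so that p rests largely on a spread pooled over genes. On simulated counts they recovered 10, 2 and 18 of 100 genes changed 4-fold and 0, 1 and 0 of 100 changed 2-fold. Each simulation also gave 1 false call. The count against all other cells fell to 0 without 20GG79:1 and to 0 without 20GG79:6 (1794 and 2120 genes at an unadjusted p under 0.05 by edgeR), rose to 471 without 20GG95:3, and was 1934 by DESeq2. The count against Ano1-high cells stayed between 37 and 65 when any 1 mouse was left out and was 820 by DESeq2. Scaling by RLE in place of TMM moved the median fold change against Ano1-high cells by -0.11, to 0.15, and 55 genes then passed.

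**Figure D2:**
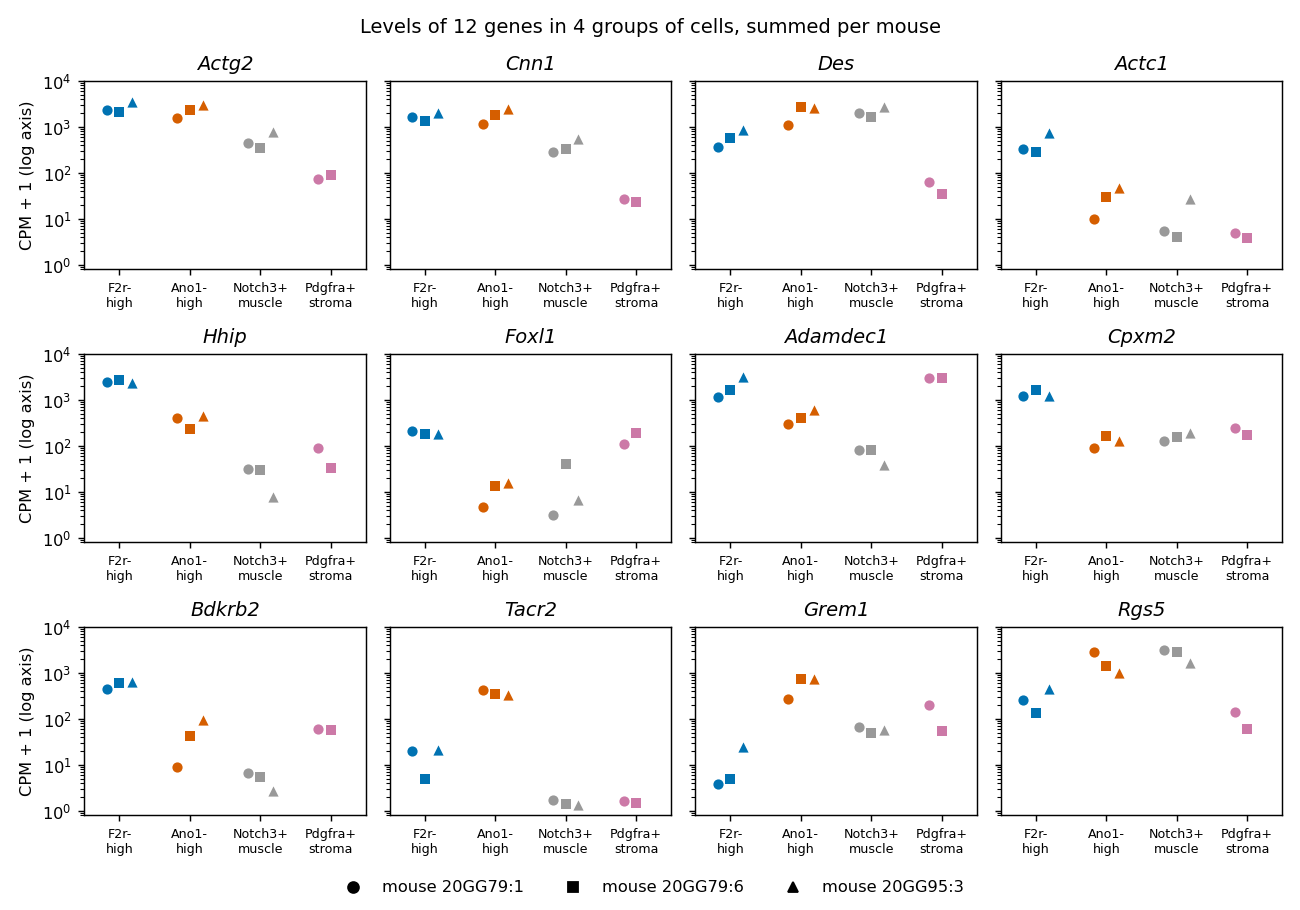
Level of 12 genes (CPM + 1, logarithmic axis) in F2r-high cells, Ano1-high cells, Notch3-positive muscle and Pdgfra-positive stroma. Each point is 1 mouse with the counts of its cells summed; Actg2 overlaps between F2r-high and Ano1-high cells, while Hhip, Cpxm2, Bdkrb2 and Actc1 are higher in the first and Tacr2 and Grem1 higher in the second.

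The contractile genes were at muscle level in the members. Acta2, the smooth muscle actin of vessels and viscera, stood at 4869, 4837 and 7983 CPM, Actg2, the enteric actin, at 2348, 2163 and 3432 CPM, and the actin-binding calponin gene Cnn1 at 1672, 1349 and 2062 CPM. Their Ano1-high counterparts stood at 4209, 5701 and 7612, 1549, 2342 and 3005 and 1177, 1810.5 and 2420.4 CPM, ranges that overlap with those of the members for all 3 genes. Of 39 contractile genes tested against Ano1-high cells, 1 was higher, 1 lower and 37 did not pass, with a median log2 fold change of -0.03 beside 0.27 over all genes tested. The 2 that passed were Actc1 and Des.

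Actc1 (chr2:114047282-114053548, minus strand), the cardiac alpha-actin, was the higher of the pair: 329.5, 292 and 733 CPM in members and 8.93, 28.8 and 47 CPM in Ano1-high cells. Every mouse had more in its members, and the lowest member value was above the highest Ano1-high value (log2 fold change 4.04 ± 0.495, adjusted p = 0.0225). It was also 4.37, 3.02 and 26.7 CPM in Notch3-positive muscle and 4.01 and 2.82 CPM in stroma, and the fold against all other cells was log2 fold change 5.08 ± 0.484, adjusted p = 0.0281. Actin RNAs are alike in their coding parts, and how far the counting parted reads of Actc1 from those of the other actins was not tested. Des, the intermediate filament desmin, was lower: 364, 566 and 878 CPM in members and 1118, 2713 and 2613 CPM in Ano1-high cells (log2 fold change -1.93 ± 0.253, adjusted p = 0.0227). The lowest Ano1-high value exceeded the highest member value. Notch3-positive muscle held 2032, 1632 and 2734 CPM of Des, so the members had the least desmin of the 3 muscle groups in each mouse.

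Against Pdgfra-positive stroma, 24 of 39 contractile genes were higher and 0 lower, with a median log2 fold change of 1.75 beside -0.00194 over all genes; the rule set Myh11 apart between these groups, so this count is a description. Cnn1 was 26.3 and 22.2 CPM and Actg2 72.4 and 87.3 CPM in the stroma of the 2 mice. Myocd, the coactivator of SRF that drives the smooth muscle programme, stood at 749.7, 1129 and 1320.2 CPM in members and 59.2 and 21.5 CPM in stroma (log2 fold change 4.75 ± 0.531, adjusted p = 0.0114). Against all other cells, Actc1 alone of the 39 passed as higher and 0 were lower, with 33 of 39 fold changes above 0 and a median of 1.18 beside -0.15 over all genes.

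Of 39 genes of thrombin receptor signalling tested against Ano1-high cells, 0 passed by edgeR in either direction, 11 had an unadjusted p under 0.05 and DESeq2 called 4, with a median of -0.07 beside 0.27. Against all other cells 3 of 41 were lower (Rgs4, Procr and Rgs5) and 0 higher. The coagulation receptor Procr, which binds protein C, was low in members at 20.3, 35.8 and 9.75 CPM and passed as lower against all other cells (log2 fold change -3.55 ± 0.354, adjusted p = 0.0281) and against stroma (log2 fold change -4.18 ± 0.350, adjusted p = 0.00436), which held 502 and 520.3 CPM. Thbd, thrombomodulin, stood at 625, 342 and 445 CPM in members, 145, 327 and 94.2 CPM in Ano1-high cells and 1427 and 2021 CPM in stroma, and did not pass in any of the 3. F2rl3, the thrombin receptor PAR4, was at 1.2, 1.4 and 0 CPM in members and lower than in stroma (log2 fold change -5.73 ± 0.815, adjusted p = 0.0234). Downstream of the receptor, the phospholipase gene Plcb3 (338, 497 and 387 CPM) and the myosin phosphatase subunits Ppp1r12a and Ppp1r12b were higher than in stroma, 3 of 42 genes tested, and 2 were lower.

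RGS proteins switch off G proteins. Rgs2, which acts on Gq, stood at 468, 235 and 272 CPM in members and 7.94, 36 and 51.9 CPM in Ano1-high cells. This difference did not pass (log2 fold change 3.42 ± 0.720, adjusted p = 0.134). Rgs4 and Rgs5, genes of mural cells, were lower than in all other cells, with 2.75, 2.96 and 38.5 and 252, 134 and 445 CPM (log2 fold change -5.57 ± 0.508, adjusted p = 0.0281; log2 fold change -1.89 ± 0.198, adjusted p = 0.0281). Rgs5 stood at 2924, 1413 and 1006 CPM in Ano1-high cells, above the members in every mouse, and did not pass there (log2 fold change -2.87 ± 0.513, adjusted p = 0.0721). Cells with at least 1000 CPM of Rgs5 numbered 42 of 395 among members and 51 of 125 among Ano1-high cells (8 of 9, 10 of 14 and 33 of 102), and the summed pericyte markers ran from 640.3 to 1188.5 CPM against 2567 to 4978 CPM. In 20GG95:3, all 34 genes that met the naming rule against Ano1-high cells kept their direction when these cells were left out of both groups. The naming rule had already asked for that direction in this mouse, so this is no separate support. Gca in Ano1-high cells fell from 57.3 to 9.02 CPM, and Actg2, outside the 34, changed direction (3469 CPM in members against 3505.5). Leaving these cells out was an alternative chosen after seeing the data. Over all mice it could not be fitted, since 1 mouse was left with at least 5 Ano1-high cells; the same step took the count against all other cells to 0 (1885 genes at an unadjusted p under 0.05 by edgeR).

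Of 42 receptors for transmitters, hormones and lipids tested against Ano1-high cells, 1 was higher (Bdkrb2), 4 were lower (Tacr2, Ptger1, Ptger3 and Adora1) and 37 did not pass, with a median of 0.32 beside 0.27. Bdkrb2 (chr12:105563226-105595237, plus strand), the Gq-coupled bradykinin B2 receptor, stood at 452, 595 and 644 CPM in members, 7.94, 41 and 93.8 CPM in Ano1-high cells, 5.83, 4.53 and 1.7 CPM in Notch3-positive muscle and 58.9 and 56.4 CPM in stroma. The members were highest in every mouse with no overlap, and Bdkrb2 passed against Ano1-high cells (log2 fold change 3.98 ± 0.560, adjusted p = 0.0230), all other cells (log2 fold change 3.47 ± 0.241, adjusted p = 0.0220) and stroma (log2 fold change 3.24 ± 0.301, adjusted p = 0.00546).

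The receptors that were lower in members differed in level. Tacr2 (chr10:62252438-62265990, plus strand), the neurokinin receptor that responds to tachykinins of enteric neurons, stood at 19.1, 3.9 and 20.5 CPM in members and 428, 346 and 329 CPM in Ano1-high cells (log2 fold change -5.06 ± 0.650, adjusted p = 0.0225), and 100 of 395 members held any count of it against 67 of 125 Ano1-high cells. Ptger1, the prostaglandin receptor EP1, stood at 168, 124 and 295 and 1915, 1090.1 and 1194 CPM (log2 fold change -3.02 ± 0.381, adjusted p = 0.0225). Every Ano1-high value was above every member value for both genes. Ptger3, the receptor EP3, stood at 23.6, 5.46 and 10.9 and 316, 93.1 and 234 CPM (log2 fold change -4.20 ± 0.589, adjusted p = 0.0230), and the adenosine receptor gene Adora1 at 11.4, 11.4 and 37.4 and 312, 289.8 and 319 CPM. The muscarinic receptors were hardly read: Chrm3 had 0, 0 and 1 counts over the members of each mouse, and Chrm2 4, 82 and 77.

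Against stroma, 3 of 48 receptors tested were higher (Bdkrb2, P2ry14 and Tbxa2r) and 4 lower (Glp2r, Adcyap1r1, Lpar3 and S1pr3). P2ry14, which binds UDP sugars, stood at 568, 451 and 477 CPM in members and 152 and 132 CPM in stroma (log2 fold change 1.91 ± 0.270, adjusted p = 0.0233), and Tbxa2r, the thromboxane receptor, at 206, 212 and 201 and 31 and 8.39 CPM. S1pr3 and Adcyap1r1 were also lower than in all other cells, 2 of 4 receptors lower there beside 1 higher of 58 tested. Ednra, the endothelin A receptor, was high in members at 1048, 1029 and 754 CPM and in Notch3-positive muscle at 1051, 1649.6 and 927 CPM, and Lpar1 in members at 323, 461 and 356 CPM; neither passed against Ano1-high cells, which held 409, 399 and 186 and 211, 197 and 284 CPM.

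Of 39 ion channel and calcium genes tested against Ano1-high cells, 0 passed by edgeR, 11 had an unadjusted p under 0.05 and DESeq2 called 6, with a median of -0.41 beside 0.27. The large-conductance potassium channel subunit Kcnmb1 stood at 342, 291 and 386 CPM in members and 234, 84.6 and 239.8 CPM in Ano1-high cells. It did not pass (log2 fold change 0.89 ± 0.388, adjusted p = 0.699). Casq2, the calsequestrin that stores calcium, stood at 496, 944 and 948 CPM in members and was higher than in all other cells (log2 fold change 2.05 ± 0.263, adjusted p = 0.0453). Its difference from 203, 94.9 and 109.3 CPM in Ano1-high cells did not pass. Pln, phospholamban, a gene of vascular muscle in this tissue, stood at 0.655, 1.33 and 21.4 CPM in members and 660.0, 313 and 657 CPM in Notch3-positive muscle. Against stroma 6 of 43 channel genes were higher, among them the T-type calcium channel Cacna1h (log2 fold change 4.76 ± 0.419, adjusted p = 0.00514) and the cation channel Trpc6 (log2 fold change 6.49 ± 0.649, adjusted p = 0.00680), and 1, Cacna1g, was lower.

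In the nitric oxide and cyclic nucleotide pathway, Pde5a, the phosphodiesterase that breaks down cyclic GMP, was the 1 gene of 24 that passed against Ano1-high cells. It stood at 146, 133 and 177 CPM in members and 813, 737 and 745 CPM in Ano1-high cells with no overlap (log2 fold change -2.46 ± 0.316, adjusted p = 0.0225). The guanylate cyclase gene Gucy1a1 stood at 599, 375 and 511 and 501, 551 and 497 CPM, which overlap, beside 1911, 1654 and 1519.5 CPM in Notch3-positive muscle. Adcy5 and Pde4d were higher than in stroma, 2 of 25 genes, and 0 were lower.

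Hhip, a Hedgehog-binding membrane protein and itself a target of the pathway, (chr8:79965851-80058006, minus strand) was high in the members and low elsewhere. It stood at 2478, 2764 and 2297 CPM in members, 396, 238 and 448 CPM in Ano1-high cells, 31.3, 28.3 and 6.58 CPM in Notch3-positive muscle and 90.5 and 31.4 CPM in stroma. The members were highest in every mouse and no group overlapped with them. Hhip passed against Ano1-high cells (log2 fold change 2.73 ± 0.262, adjusted p = 0.0122), all other cells (log2 fold change 4.13 ± 0.375, adjusted p = 0.0281) and stroma (log2 fold change 5.68 ± 0.439, adjusted p = 0.00357).

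Of 14 Hedgehog and Foxf genes tested against Ano1-high cells, Hhip was the 1 that was higher and 0 were lower, with a median of 0.72 beside 0.27, and 9 of 14 fold changes were above 0. Ptch1, the Hedgehog receptor and a common readout of the pathway, stood at 647, 819 and 662 CPM in members and 568, 332 and 465 CPM in Ano1-high cells (log2 fold change 0.55 ± 0.306, adjusted p = 0.802), and Gli1 at 156, 133 and 179 and 74.1, 49.2 and 122 CPM; each was higher in the members of every mouse without passing. Foxl1, a winged-helix factor of mesenchyme under the epithelium, stood at 208, 179.9 and 186 CPM in members and 3.64, 12.5 and 14.9 CPM in Ano1-high cells. This difference did not pass (log2 fold change 4.27 ± 0.746, adjusted p = 0.0644). Stroma held 111 and 189 CPM, which overlaps with the members. Against stroma Gas1, a Hedgehog co-receptor, and Hhip were higher, 2 of 14, with a median of 0.84 beside -0.00194, and Ptch1, at 448 and 406 CPM in stroma, did not pass. Against all other cells Hhip was 1 of 15, with a median of 1.29 beside -0.15 and 13 of 15 fold changes above 0.

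Of 35 BMP and TGF-beta genes tested against Ano1-high cells 3 were lower, 0 were higher and 32 did not pass, with a median of 0.18 beside 0.27. Grem1 (chr2:113746164-113758646, minus strand), gremlin 1, which binds and blocks BMP ligands, stood at 2.84, 3.82 and 23.7 CPM in members and 272, 751 and 728 CPM in Ano1-high cells (log2 fold change -6.50 ± 0.659, adjusted p = 0.0129). The chordin-like antagonist Chrdl1 stood at 74.8, 101 and 44.7 and 229.8, 697 and 589.9 CPM (log2 fold change -2.83 ± 0.435, adjusted p = 0.0345). Ano1-high values were above member values in every mouse, with no overlap for either gene. Both are among the 3 lower genes.

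Chrdl2, a second chordin-like gene, went the other way: 271, 211 and 199.7 CPM in members and 4.3, 73.9 and 68.1 CPM in Ano1-high cells. It passed against all other cells (log2 fold change 3.60 ± 0.430, adjusted p = 0.0403) and stroma (log2 fold change 4.79 ± 0.541, adjusted p = 0.0119) and not against Ano1-high cells (log2 fold change 2.64 ± 0.901, adjusted p = 0.519). The ligand genes Bmp4 (1039.9, 933 and 967 CPM) and Bmp5 (325, 349 and 315 CPM) were read in every mouse; Bmp4 stood at 849, 552 and 655 CPM in Ano1-high cells and 1452 and 1529 CPM in stroma and passed in neither comparison. Against stroma 5 of 38 genes were higher (Chrdl2, Tgfbi, Tgfbr3, Fstl3 and Chrdl1) and 6 lower (Bmp7, Bmp3, Gdf10, Chrd, Grem1 and Bmp5), with Bmp7 at 608 and 1129.5 CPM in stroma and 6.43, 19.3 and 0.149 CPM in members. Tgfbi, a matrix protein induced by TGF-beta, stood at 2456, 2183 and 2386 CPM in members.

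Of 27 WNT genes, Fzd1, a WNT receptor, was the 1 that passed against Ano1-high cells, at 84.9, 104 and 143 CPM in members and 572, 772 and 441 CPM there (log2 fold change -2.55 ± 0.409, adjusted p = 0.0443). Rspo3, an R-spondin that strengthens WNT signals, stood at 0.564, 4.29 and 7.7 CPM in members and 269, 144 and 229 CPM in Ano1-high cells. It did not pass (log2 fold change -6.20 ± 1.03, adjusted p = 0.0511). Wnt5a and the WNT inhibitor Wif1 were lower than in stroma, the 2 of 28 genes that passed there. Against all other cells 0 of 31 passed by edgeR, with 8 at an unadjusted p under 0.05 and 8 called by DESeq2.

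Matrix genes were read at high levels in the members. Col3a1, fibrillar collagen III, stood at 5652, 4980.3 and 4936 CPM in members, 2810.4, 3382 and 1889 CPM in Ano1-high cells, 1417, 1789 and 1058 CPM in Notch3-positive muscle and 8308 and 6375 CPM in stroma. Postn, periostin, stood at 5780.3, 4479 and 5852 CPM in members against 3835 and 2483 CPM in stroma, and it was one of 3 matrix genes higher than in stroma (log2 fold change 0.79 ± 0.133, adjusted p = 0.0377), with Ltbp1 and Mfap5. The other side held 14 of 50 genes lower than in stroma, among them Fbln1, Fbln2, Col1a1, Dcn and Lum, with a median of -0.90 beside -0.00194. Fbln2, a fibulin of fibroblasts, stood at 16.1, 7.1 and 2.36 CPM in members and 678 and 453 CPM in stroma.

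Against Ano1-high cells 1 of 49 matrix genes was higher and 1 lower. Fn1, fibronectin, stood at 1126, 1553 and 1085 CPM in members and 173, 212 and 354 CPM in Ano1-high cells (log2 fold change 2.28 ± 0.291, adjusted p = 0.0225), and Sparcl1, a SPARC-like matrix gene, at 1158, 1200.5 and 1078 and 2811, 3524 and 3079 CPM (log2 fold change -1.56 ± 0.194, adjusted p = 0.0225). Neither overlapped between the groups. Among 27 basement membrane genes, Lamb1, the laminin beta-1 chain, was the 1 that passed, at 1066, 1415 and 1203 and 299, 190.2 and 172 CPM (log2 fold change 2.40 ± 0.327, adjusted p = 0.0228); its relative Lamb2 stood at 136, 255 and 211 and 1152, 687 and 795 CPM and did not pass (log2 fold change -2.25 ± 0.384, adjusted p = 0.0586). Bcam, a laminin receptor, was lower, at 19, 93.8 and 67.8 CPM in members, 299.6, 479 and 489 CPM in Ano1-high cells and 1562, 1551 and 1973 CPM in Notch3-positive muscle (log2 fold change -3.17 ± 0.464, adjusted p = 0.0274), 1 of 37 integrin and dystrophin genes. Itgb3, an integrin chain, was higher than in all other cells at 279.9, 240 and 446 CPM (log2 fold change 2.42 ± 0.228, adjusted p = 0.0281). Against stroma 7 of 37 were higher and 0 lower, Dtna, Dmd and the caveola gene Cav3 among them.

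Proteases and their inhibitors held 3 genes higher and 2 lower of 44 tested against Ano1-high cells. Cpxm2 (chr7:132032687-132154739, minus strand), a carboxypeptidase-like protein, stood at 1235, 1654 and 1216 CPM in members, 90.6, 167 and 129 CPM in Ano1-high cells, 127, 158 and 190.1 CPM in Notch3-positive muscle and 240.2 and 171 CPM in stroma. The members of every mouse were above every other group. Cpxm2 passed in all 3 comparisons (log2 fold change 3.32 ± 0.274, adjusted p = 0.00484 against Ano1-high cells; log2 fold change 2.99 ± 0.229, adjusted p = 0.0224 against all other cells; log2 fold change 2.89 ± 0.275, adjusted p = 0.00632 against stroma).

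Adamdec1 (chr14:68563380-68582095, minus strand) stood at 1190, 1665 and 3228 CPM in members and 295, 396 and 614 CPM in Ano1-high cells (log2 fold change 2.04 ± 0.244, adjusted p = 0.0225). It was 79.2, 80.8 and 36.7 CPM in Notch3-positive muscle and 3074 and 2941 CPM in stroma. The members were above both other muscle groups in every mouse, and in the 2 mice with stroma they were below it (log2 fold change -1.03 ± 0.178, adjusted p = 0.0445), while those of 20GG95:3 were as high as that stroma. Plau, urokinase, was higher in members of each mouse, at 222, 379.9 and 46.8 against 5.29, 8.77 and 4.92 CPM, with 20GG95:3 the lowest (log2 fold change 4.57 ± 0.719, adjusted p = 0.0381). Lower were Cpe, carboxypeptidase E, at 203, 58.5 and 132 and 869.7, 1474 and 1732 CPM (log2 fold change -3.60 ± 0.468, adjusted p = 0.0225), and the serine protease Prss23 at 9.98, 12 and 39.9 and 385, 525 and 254 CPM (log2 fold change -4.65 ± 0.721, adjusted p = 0.0356).

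**Figure D3:**
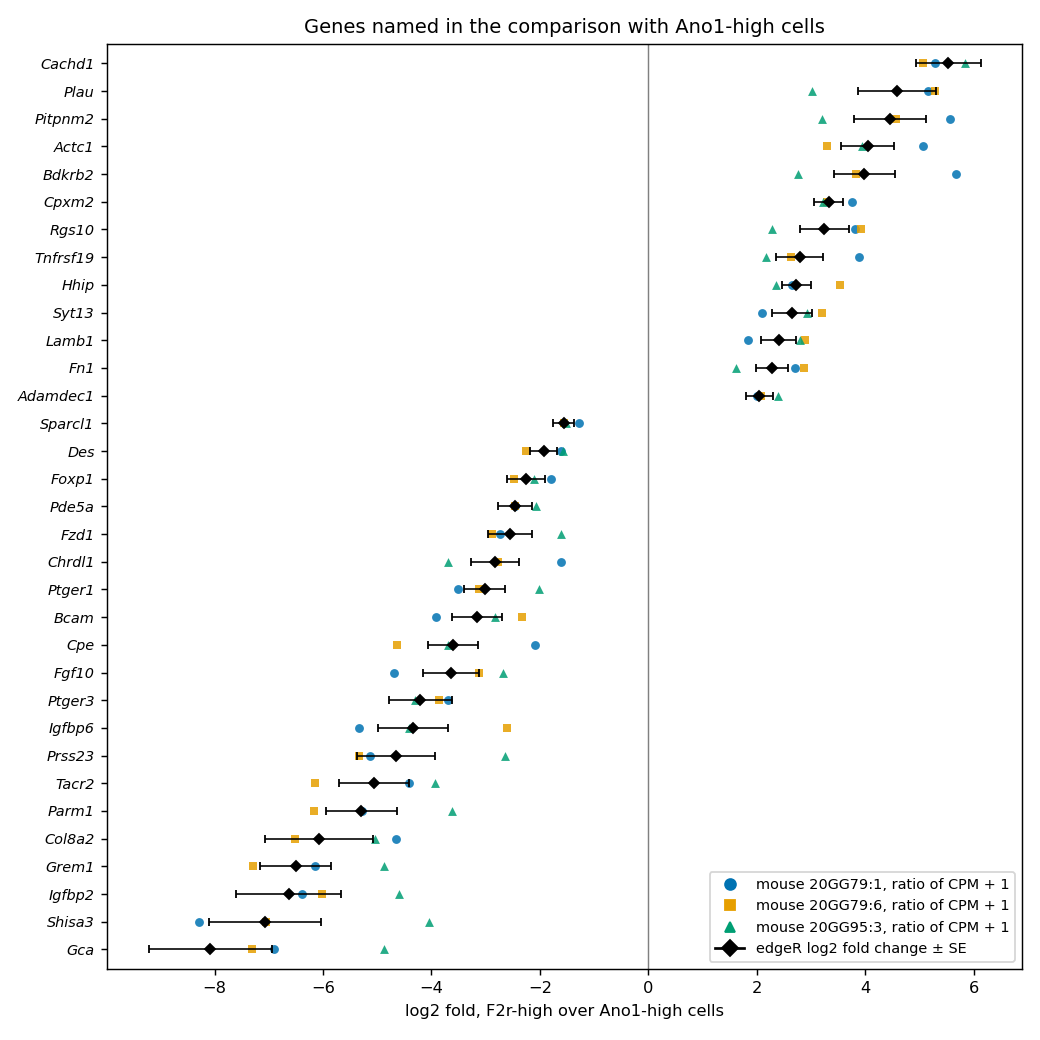
Log2 fold of F2r-high over Ano1-high cells for genes that met the naming rule in this comparison. Diamonds with bars are the edgeR log2 fold change ± SE, coloured points the ratio of CPM + 1 in each mouse; all 3 mice lie on the same side of 0 for each gene, which the rule for naming required.

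Genes of the lamina propria stroma were mostly on the stromal side. Against stroma 16 of 42 genes were lower and 1, Agt, was higher, with a median of -2.57 beside -0.00194; the groups were cut on Pdgfra, so this too is a description. Cxcl12, a chemokine of stroma, stood at 354, 189.8 and 377 CPM in members and 2842 and 2800.4 CPM in stroma (log2 fold change -3.37 ± 0.279, adjusted p = 0.00428). Agt stood at 1148, 1420.4 and 1204 CPM in members, 477, 1217 and 600.3 CPM in Ano1-high cells and 289 and 285 CPM in stroma, and passed against stroma (log2 fold change 2.22 ± 0.216, adjusted p = 0.00603) and all other cells (log2 fold change 2.21 ± 0.223, adjusted p = 0.0281). Against Ano1-high cells 1 of 39 genes of the list was higher (Adamdec1) and 3 lower, Grem1 and Fgf10 among them, with a median of 0.06 beside 0.27.

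Growth factor genes held 0 higher and 3 lower of 52 against Ano1-high cells. Fgf10, a ligand for epithelial FGF receptors, stood at 22.9, 66.5 and 37.7 CPM in members and 616, 586 and 249 CPM in Ano1-high cells (log2 fold change -3.64 ± 0.519, adjusted p = 0.0247), and the IGF-binding proteins Igfbp2 and Igfbp6 stood at 0.158, 7.41 and 12.1 and 8.24, 69 and 10.5 CPM against 96.6, 545 and 316 and 371, 425 and 244 CPM. Igf1 itself stood at 246, 343 and 337 CPM in members and 53.6, 11 and 32.8 CPM in Ano1-high cells; it passed against all other cells (log2 fold change 2.64 ± 0.322, adjusted p = 0.0403) and not against Ano1-high cells (log2 fold change 3.38 ± 0.635, adjusted p = 0.0858). Pdgfc and Met were near absent from stroma and higher in members (log2 fold change 6.72 ± 0.437, adjusted p = 0.00236; log2 fold change 6.03 ± 0.837, adjusted p = 0.0217), 2 of 4 genes higher of 55 tested, with Sema3a and Ntn1, while Igfbp3, Igfbp4 and Fgf9 were lower.

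Among transcription factors of position and mesenchyme, 1 of 45 passed against Ano1-high cells, Foxp1, which was lower at 115, 109.8 and 99.8 against 405, 613 and 436 CPM (log2 fold change -2.26 ± 0.349, adjusted p = 0.0345). Pitx1, a hindgut and hindlimb homeobox gene, stood at 466, 456 and 488 CPM in members and was higher than in all other cells (log2 fold change 1.59 ± 0.210, adjusted p = 0.0453), where Heyl, Hey2, Ebf1 and Nr2f2 were lower, 4 of 60; those cells include the muscle with Notch3. Heyl, a Notch target, stood at 7.38, 2.42 and 8.53 CPM in members (log2 fold change -5.60 ± 0.271, adjusted p = 0.0170). Against stroma 0 of 52 passed by edgeR, 8 had an unadjusted p under 0.05 and DESeq2 called 7, with a median of -0.09. Nkx2-3, a homeobox gene of gut mesenchyme, stood at 597, 734 and 615 CPM in members and at 368, 542 and 295, 339, 456 and 267 and 370.3 and 403 CPM in Ano1-high cells, Notch3-positive muscle and stroma.

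Cdh6, a cadherin, stood at 339, 291 and 281 CPM in members and 3.75 and 2.93 CPM in stroma (log2 fold change 6.63 ± 0.422, adjusted p = 0.00236), while the gap junction gene Gja1 (6.1, 11 and 3.88 and 587 and 673 CPM, log2 fold change -6.20 ± 0.357, adjusted p = 0.00197) and Cdh11 were lower. Against Ano1-high cells 0 of 27 junction genes passed by edgeR, with 11 at an unadjusted p under 0.05 and 6 called by DESeq2. Immediate-early and heat shock genes, which respond to dissociation, gave 0 of 28 by edgeR against Ano1-high cells (4 at an unadjusted p under 0.05, 2 by DESeq2) and 0 of 28 against all other cells (7 and 4). Against stroma 4 of 28 were higher (Hspb1, Hspb8, Hspa1a and Hsph1). Fos stood at 1936, 2198 and 1929.8 CPM in members, 1087, 1454 and 2208 CPM in Ano1-high cells and 1324 and 605 CPM in stroma. Hspa1a cannot be fully parted from its near copy Hspa1b.

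**Figure D4:**
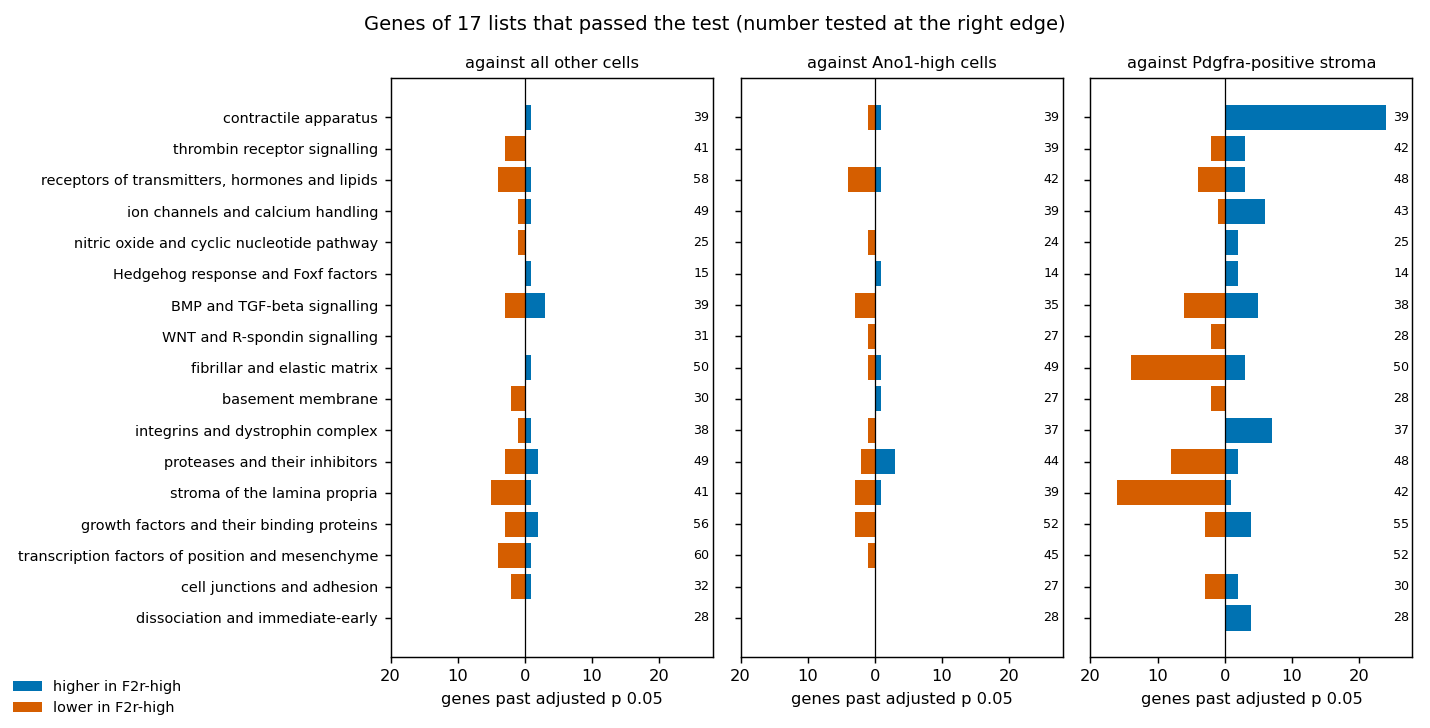
Number of genes of 17 lists that passed an adjusted p of 0.05 in each comparison, higher in F2r-high cells to the right (blue) and lower to the left (orange), with the number tested at the right edge of each panel. Against Ano1-high cells no list has more than 4 genes on one side, while against stroma 24 contractile genes are higher and 16 lamina propria genes lower.

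Other named genes belong to no list used here. Cachd1 (chr4:100776675-101029220, plus strand), a subunit-like partner of voltage-gated calcium channels, stood at 244, 348 and 269 CPM in members and 5.29, 9.4 and 3.7 CPM in Ano1-high cells (log2 fold change 5.53 ± 0.60, adjusted p = 0.0175), the largest rise among the genes named against Ano1-high cells. Tnfrsf19, a receptor of the TNF family, stood at 352, 576 and 433 and 22.8, 92.8 and 95.5 CPM (log2 fold change 2.79 ± 0.433, adjusted p = 0.0356), the G protein regulator Rgs10 at 529.6, 429.5 and 427 and 37, 27.6 and 87.8 CPM, and Syt13, a synaptotagmin, at 486, 1064 and 576 and 113, 114 and 75.4 CPM. Each was higher in the members of every mouse with no overlap. Sncaip, the gene of synphilin-1, was higher than in all other cells at 348, 439 and 264 CPM (log2 fold change 3.70 ± 0.250, adjusted p = 0.0220). The largest falls against Ano1-high cells were Gca, grancalcin, at 0.181, 0.858 and 0.984 and 139.9, 295 and 57.3 CPM, and Shisa3 at 1.72, 3.67 and 53.3 and 848, 619.8 and 900.4 CPM (log2 fold change -7.07 ± 1.03, adjusted p = 0.0274). Gca counts came from 21 of 395 members and 20 of 125 Ano1-high cells, so its fall rests on few cells.

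Members varied little in Acta2 and Postn and more in Hhip and Cpxm2, though less in these than in most genes ranked. Over 1511 genes of at least 100 CPM, ranked from the most to the least variable across members by the coefficient of variation (SD over mean), Acta2 ranked 1506, 1496 and 1511, with coefficients of 0.335, 0.415 and 0.350, and Postn 1510, 1507 and 1507, beside a median over the ranked genes of 1.36, 1.40 and 1.80. Hhip had coefficients of 0.623, 0.532 and 0.799 (ranks 1404, 1457 and 1442), and Cpxm2 of 0.645, 0.585 and 0.890 (ranks 1389, 1420 and 1405). Des had coefficients of 1.70, 1.24 and 2.03, ranks 359, 958 and 526, above the median of the ranked genes in 20GG79:1 and 20GG95:3 and below it in 20GG79:6. Its median was 47.3, 415 and 364 CPM per cell, the 10th percentile 5.26, 15.7 and 11.96 and the 90th 965, 1765 and 2438 CPM. The ranking made no allowance for level. Mavs, near its most variable end, stood at 107, 147 and 121 CPM, and Myl9, near its least variable end, at 2818, 2874 and 4232 CPM. How far the order follows level was not tested. A coefficient per cell also holds the counting error of shallow cells. Mouse 20GG95:3 had the lowest median depth (137046.5 counts per member, against 302445.5 and 198397).

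**Figure D5:**
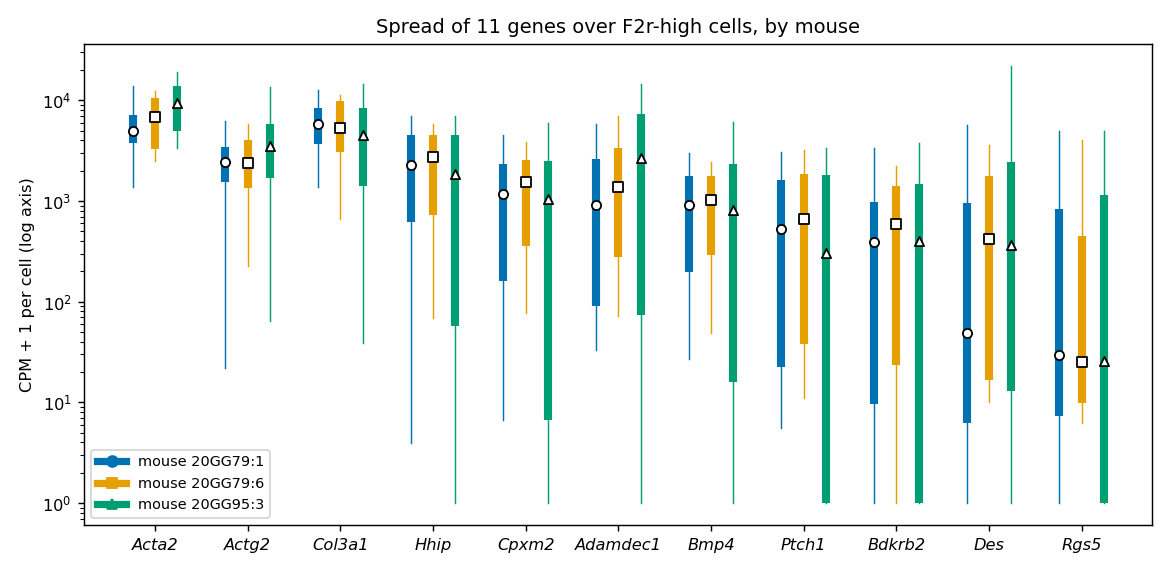
Spread of 11 genes over the F2r-high cells of each mouse, as CPM + 1 per cell on a logarithmic axis. Thin lines run from the lowest to the highest cell, thick bars from the 10th to the 90th percentile, and symbols mark the median; Acta2, Actg2 and Col3a1 have short bars, while those of Des and Rgs5 are long in all 3 mice.

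F2r was not high in every member. It was under 100 CPM in 52 of the 395 (6, 3 and 43), most of them in 20GG95:3. These cells met the rule only because Ano1 was lower still. Likewise, Ano1 was under 100 CPM in 24 of the 125 Ano1-high cells (2, 2 and 20), again most of them in 20GG95:3. In that mouse the 43 cells held 5840.4 CPM of Myh11 and the 157 others 6052 CPM. Acta2 and Actg2 stood at 9275 and 3623 CPM in the 43 against 7715 and 3393 CPM in the others. Their Hhip stood at 841 CPM against 2599.5 CPM, Cpxm2 at 581 against 1348, Casq2 at 342 against 1074 and Bdkrb2 at 178 against 741 CPM. Grem1 and Rgs5 stood at 124 and 893 CPM against 2.81 and 352 CPM, and in the Ano1-high cells of that mouse at 728 and 1006 CPM. The Ano1-high cells held 448 CPM of Hhip, 129 of Cpxm2, 109.3 of Casq2 and 93.8 of Bdkrb2. As summed levels, the 43 cells lay between the other members and the Ano1-high cells in these 6 genes. In Acta2 and Actg2 they lay above both (7612 and 3005 CPM in Ano1-high cells), as in Bmp4 (1041 CPM, against 952 in the others and 655 in Ano1-high cells) and Pln (121, 0.792 and 109.7 CPM), and in Ptch1 below both (366, 723 and 465 CPM). Medians per cell of the 43 were far lower: 5.04 CPM of Bdkrb2, 8.83 of Casq2, 47.9 of Cpxm2, 5.04 of Grem1 and 0 of Pln. Those sums thus came from a part of the 43 cells and do not describe a typical one. By median, Actg2 (3277 against 3515 CPM) and Bmp4 (473 against 856 CPM) were lower in the 43 than in the 157. This split of the members was made on F2r after seeing the data and was not tested. Median depths were 127190 and 139954 counts for the 43 and the 157. With only members of at least 100 CPM of F2r and Ano1-high cells of at least 100 CPM of Ano1, an alternative chosen after seeing the data, 82 genes passed in place of 41, all of the 41 among them, and 218 in place of 344 against stroma.

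The 2 plates of 20GG95:3 gave 68 and 132 members at median depths of 236043 and 120739 counts. Myh11 stood at 7238 and 4741 CPM, and without either plate 37 or 34 genes passed against Ano1-high cells. Xist, the RNA of the inactive X chromosome, stood at 436, 0.468 and 552 CPM in the members, low in the mouse labelled male and high in both labelled female. Of the 34 genes that met the naming rule against Ano1-high cells, 9 passed under each alternative listed in the closing section (Cachd1, Cpe, Cpxm2, Grem1, Hhip, Parm1, Pde5a, Ptger1 and Tacr2), as did 45 of the 56 named against stroma and 0 of the 53 named against all other cells. The alternatives share cells and mice with the reported fit and are not independent of it.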

How the data were processed

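Raw read counts per gene and cell were used as the authors deposited them; bcl2fastq, Bowtie, Bowtie2, featureCounts, Subread and the builds GRCm38 and mm10 are named, per the submitters' processing notes, with neither role nor version stated there. Of 46517 gene identifiers 46005 matched a symbol; 92 spike-ins were left out of totals. Cell totals ran from 45388 to 1046988 counts (median 194180) without molecular identifiers. The members and gene lists were chosen with earlier results of these data known.

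Counts were summed per mouse and group (at least 5 cells in both) and tested with edgeR 4.0.16 (quasi-likelihood, TMM, low-count filter, R 4.3.3), with the mouse as a block since both groups come from the same animal; limma 3.58.1 and DESeq2 1.42.0 were alternatives. Benjamini-Hochberg adjustment ran over all genes tested except the 7 of the rule, at 0.05. The fit was tested on simulated data. Genes were named where they passed, reached a mean of 50 CPM in the higher group and moved alike in every mouse: the 10 largest each way (5 for stroma) and up to 3 per list each way (2 for stroma), skipping ribosomal, mitochondrial and predicted genes. Other genes with values were chosen after these were seen. A gene that met the rule is not reported here.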

Additional observations from a re-analysis of the deposited data

How the results depend on the processing

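Against all other cells the count of 143 genes became 1934 by DESeq2, 472 by limma on mean CPM and 292 without the low-count filter. It was 76 in cells of at least 100000 counts and 51 without the replicate block. Without cells holding markers of the other classes counted above it was 44. Without the plate of 20GG95:3 that held 132 members it was 82. Leaving out 1 mouse gave 0 to 471 (221 higher, 250 lower without 20GG95:3), and leaving out cells of 1000 CPM or more of Rgs5 gave 0. Against Ano1-high cells the count of 41 became 820 by DESeq2 (537 higher, 283 lower), 220 without the filter (127 higher, 93 lower), 66 with F2r at least 2 times Ano1, 67 with Myh11 at least 2000 CPM, 82 with at least 100 CPM of F2r or Ano1, and 37 to 65 without 1 mouse; without the replicate block it was 31. Against stroma the count of 344 became 1577 by DESeq2, 786 by limma, 606 without the filter, 228 in the deeper cells and 218 with at least 100 CPM of F2r or Ano1; without the block it was 238. The Rgs5 and 100 CPM alternatives were chosen after seeing the data. The cause of these shifts was not tested.

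Of the named genes, those of the 3 comparisons kept their direction under each alternative run. The naming rule had asked for the same direction in every mouse. The alternatives reuse those mice, so a kept direction was close to set beforehand and is no separate support. For single genes against all other cells, Ano1-high cells and stroma, 273, 55 and 24 values missed the threshold and 575, 455 and 592 passed. Leaving out a mouse could not be fitted against stroma. With 3 mice, 9 to 102 Ano1-high cells per mouse and no molecular identifiers, differences of 4-fold were seldom recovered on simulated data.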
